A study of Mus musculus with 56 samples.

Results

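The smooth muscle contractile genes were followed across lung, liver and forestomach of mice given chrysene, a polycyclic aromatic hydrocarbon. The 9 genes were Acta2, Myh11, Tagln, Cnn1, Des, Actg2, Lmod1, Synpo2 and Smtn, of 20018 genes named on the array. Members were found by matching the RefSeq accession of each probe to a gene symbol, which gave 12 of the 55681 probes. For each gene and tissue the probe with the highest mean signal of the tissue sample was used, and the same probe of each gene was chosen in all 3 tissues. The rule used no dose or tissue difference. All 9 genes entered the tests in forestomach. In lung, 8 entered, with Lmod1 left out. In liver, 5 entered, with Myh11, Des, Lmod1 and Synpo2 left out, because a probe had to be well above background on at least 3 arrays of the tissue.

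Smooth muscle shortens when myosin pulls on actin filaments, and calcium starts this through phosphorylation of the myosin light chain. The contractile genes share serum response factor, a DNA-binding protein that sits on the CArG box together with myocardin and related coactivators. In the stomach wall these cells form the muscle coat and the thin muscle layer under the mucosa. In lung they ring the airways and vessels, and in liver they are found mainly in vessel walls. Acta2 and Actg2 encode the vascular and enteric smooth muscle actins, and Myh11 encodes the smooth muscle myosin heavy chain. Tagln (transgelin), Cnn1 (calponin) and Smtn (smoothelin) bind actin, and Lmod1 (leiomodin) starts new actin filaments. Des (desmin) forms the intermediate filaments of smooth, skeletal and cardiac muscle, and Synpo2 (synaptopodin 2, or myopodin) is an actin-bundling protein.

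The animals were adult male Muta Mouse, a transgenic strain carrying a mutation reporter gene in all groups, aged about 14 weeks. They received a gavage each day for 28 days, which held only the olive oil vehicle (D0) or a chrysene dose, in mg per kg of body weight, of 17.5 for D1, 50 for D2 and 150 for D3. Tissues were taken 72 h after the final dose. Forestomach and liver had 5, 5, 4 and 5 mice at D0, D1, D2 and D3, and lung had 5, 5, 3 and 5, making 56 arrays. Mice 1 to 5 received D0, mice 6 to 10 D1, mice 11, 12, 13 and 15 D2 (12, 13 and 15 in lung) and mice 16 to 20 D3. The same number marks the same animal in each tissue. RNA came from random slices of whole tissue, so fewer smooth muscle cells and less RNA per cell cannot be told apart. Each array compared the tissue RNA (Cy5 dye) with 1 reference RNA pooled from 11 mouse cell lines (Cy3 dye). Values are the authors' normalized log2 ratios of tissue over reference, so 0 means a signal equal to the reference, and levels of different genes cannot be compared. Changed means a difference with an adjusted p of at most 0.05 and at least 1.5-fold in limma.

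Each tissue held the markers of its label, and forestomach also held some of other tissues. Sftpc, the lung surfactant gene, was well above background on all 18 lung arrays and on 0 arrays of the other tissues. Krt13, a keratin of squamous lining, lay between 4.24 and 6.71 in forestomach, and in lung it was well above background on 4 arrays and reached 6.01. Apoa1 lay between 6.18 and 6.46 in liver, but it was well above background on 11 of 19 forestomach arrays too, at up to 6.30, as was Alb, the albumin gene, on 14 of 19. Scgb1a1, an airway gene, was well above background on all 19 forestomach arrays (2.98 to 6.33), against 8.39 to 9.43 in lung. The part of other tissue in the forestomach values was not tested. Within forestomach, slide 3 (7 arrays spread over all doses) stood apart: the 95th percentile of its Cy5 signal was 2412 to 6586, against 501 to 1158 on slide 1 and 278.5 to 684 on slide 2. The glandular stomach markers ranged from 0.25 to 7.03 across forestomach arrays. In lung, D3 mice 17 and 19 stood apart: the mean of 12 skeletal muscle markers was 5.46 and 5.29, against -0.99 to -0.34 in the other 16 mice. Their keratinocyte markers averaged 3.01 and 3.41, against -0.52 to -0.24. On 50 of the 56 arrays the position on the slide followed the dose step, so position and dose can hardly be told apart.

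Promoters show which contractile genes carry a near CArG box. The RefSeq promoter table (GRCm38.p6) held 6 of the 9 genes: Acta2, Cnn1, Des, Lmod1, Synpo2 and Smtn. The CArG box, searched here as CC, then 6 bases that are A or T, then GG, on both strands in the 250 bases before the start, was found exactly in 482 of 32851 promoters (1.47%) and in 0 of these 6. When at most 1 of the 6 middle bases could be G or C, 2823 promoters (8.59%) and 1 of these 6, Acta2, held a match. Below are the 250 bases of Acta2 (chr19:34255374-34255623, minus strand), of Synpo2 (chr3:123236150-123236399, minus strand), the member with the highest fitted change in forestomach, and of Srf (chr17:46556163-46556412, minus strand), the gene for serum response factor itself. Capitals mark the matches.
Acta2: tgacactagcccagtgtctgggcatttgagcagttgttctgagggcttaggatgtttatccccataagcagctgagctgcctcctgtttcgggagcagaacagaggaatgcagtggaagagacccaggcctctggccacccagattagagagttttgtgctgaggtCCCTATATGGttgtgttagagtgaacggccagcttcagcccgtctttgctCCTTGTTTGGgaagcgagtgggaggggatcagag
Synpo2: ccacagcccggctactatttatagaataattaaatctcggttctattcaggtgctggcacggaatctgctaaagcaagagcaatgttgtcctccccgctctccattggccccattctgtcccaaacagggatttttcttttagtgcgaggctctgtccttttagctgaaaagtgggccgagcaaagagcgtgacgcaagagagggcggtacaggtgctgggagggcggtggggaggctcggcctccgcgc
Srf: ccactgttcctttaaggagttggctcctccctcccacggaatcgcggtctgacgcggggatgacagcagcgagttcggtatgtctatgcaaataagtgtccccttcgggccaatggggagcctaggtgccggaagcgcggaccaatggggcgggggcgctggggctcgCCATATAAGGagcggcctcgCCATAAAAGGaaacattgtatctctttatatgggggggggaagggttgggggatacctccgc
In Acta2 the matches began 84 and 34 bases before the start, and neither was an exact box. Srf held exact boxes 82 and 62 bases before its start. Synpo2 had no match. A match is a description of letters, and no match says only that these letters are not in this window.

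Without chrysene the 2 actins were highest in forestomach, lower in lung and lowest in liver. Actg2, the enteric actin, stood at 5.37, 5.26, 5.33, 6.00 and 5.83 in the forestomachs of mice 1 to 5. In their lungs it stood at 0.18, -0.08, -0.20, 0.08 and -0.20, and in liver it averaged -2.90 ± 0.35 (SD, n = 5), with 3 of 5 arrays well above background. No tissue overlapped another. The forestomach level was 48.5-fold above lung (log2 difference 5.60, SE 0.18, limma adjusted p = 1.37e-12) and, over a liver signal that was dim, 351-fold above liver. Acta2, the vascular actin, averaged 2.60 ± 0.32 in forestomach, -0.72 ± 0.06 in lung and -2.74 ± 0.14 in liver (SD, n = 5 each). Its forestomach level was 9.99-fold above lung and 40.6-fold above liver, and lung was 4.06-fold above liver.

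**Figure D1:**
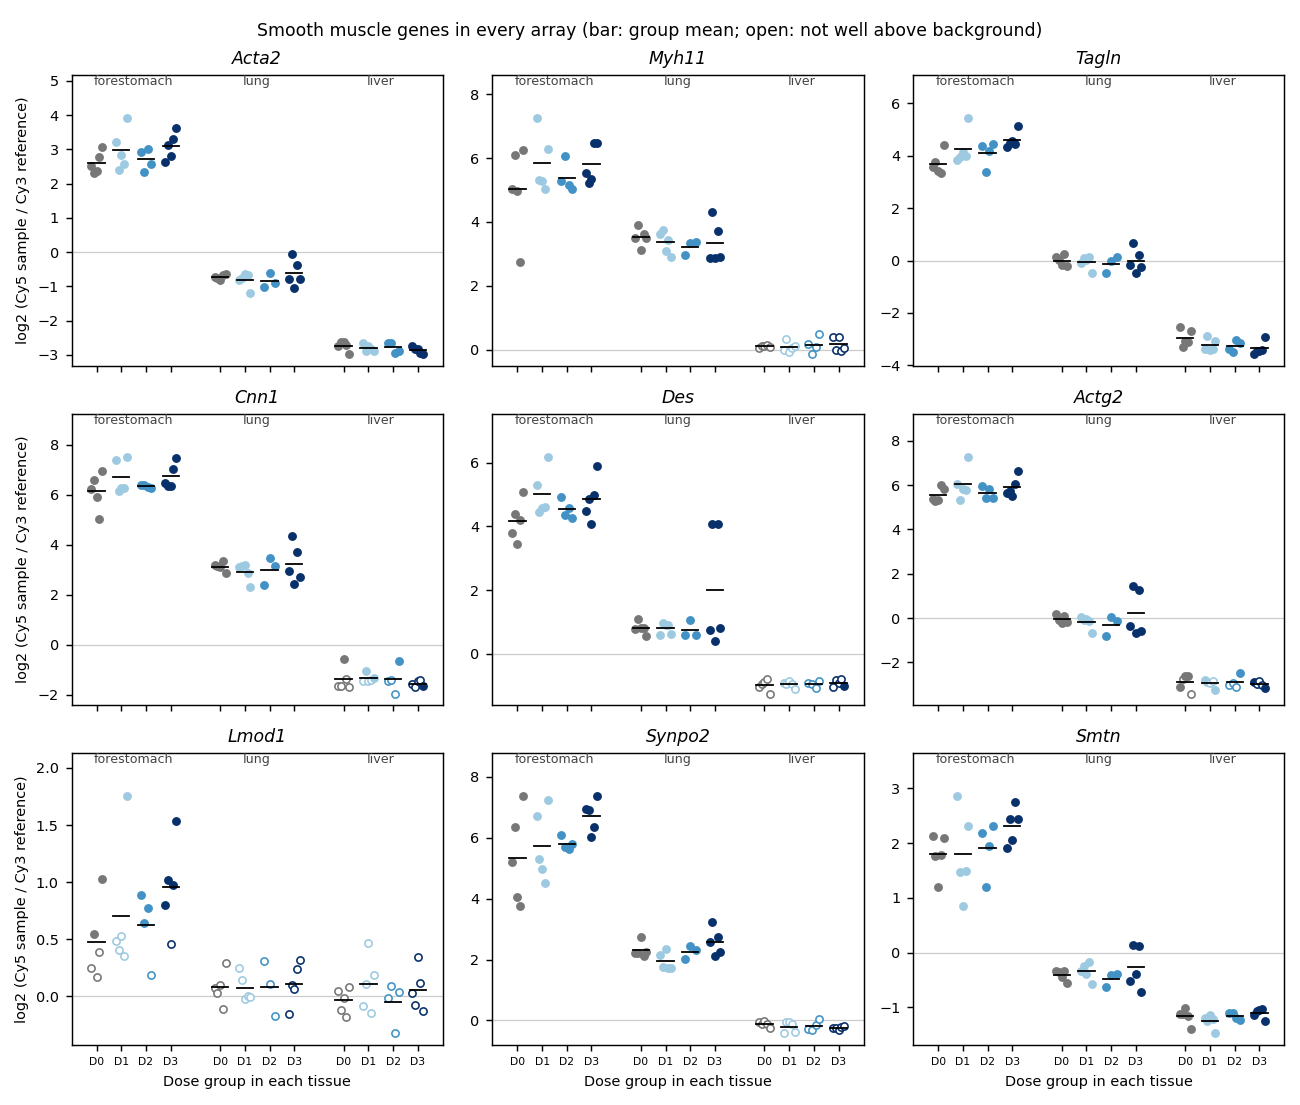
Log2 ratio of tissue over reference (vertical axis) for each of the 9 smooth muscle contractile genes, 1 point per mouse, by tissue and dose, with a bar at the group mean and open points where the probe was not well above background. Forestomach points lie above liver points for each gene except Lmod1, and within a dose the points spread widely for Myh11 and Synpo2 in forestomach and for Des at D3 in lung.

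Myh11, the myosin heavy chain, had the same order, with a narrower gap between forestomach and lung than the actins. Its D0 values were 5.05, 6.10, 4.96, 2.75 and 6.26 in forestomach and 3.49, 3.92, 3.12, 3.62 and 3.49 in lung. Mouse 4 alone had a forestomach level (2.75) below every lung. Forestomach exceeded lung by 1.495 on the log2 scale (95% interval 0.49 to 2.50, 2.82-fold, limma adjusted p = 0.0137). That call did not hold when mouse 1, 2, 3 or 5 was left out, with adjusted p values of 0.0512 to 0.0716. With ratios centred on each array's median in place of loess the difference was -0.89, with an adjusted p of 0.426. With the Cy5 signal alone it was 3.21. The reference channel itself differed for this probe, with a median Cy3 signal of 381 in forestomach, 53 in lung and 55 in liver, while the median Cy3 signal over all probes was 60, 64 and 82. Cnn1 had such a difference too, with median Cy3 signals of 2213, 485.5 and 609.5. Between forestomach and lung the medians also differed for Acta2 (35933 and 17914), Smtn (4887 and 3177), Des (482 and 281) and Actg2 (2864 and 1946). They differed less for Tagln (15666 and 14063), Synpo2 (79.5 and 65.5) and Lmod1 (43 and 44.5). The part of the reference in these values was not tested. In liver no D0 array had Myh11 well above background. Forestomach exceeded liver there by 4.91 and lung exceeded liver by 3.42 on the log2 scale, and by 5.68 and 2.47 with the Cy5 signal alone, so these gaps rest on a dim side and no fold is given.

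The actin-binding genes Tagln, Cnn1 and Smtn kept the order of forestomach, lung and liver. Tagln averaged 3.70 ± 0.43, -0.00 ± 0.19 and -2.94 ± 0.31 (SD, n = 5 each), which put forestomach 13.0-fold above lung and 100.1-fold above liver. Cnn1 averaged 6.15 ± 0.73, 3.12 ± 0.18 and -1.38 ± 0.48, and its forestomach level was 8.14-fold above lung and 185-fold above liver, where 1 of 5 arrays was well above background, so the gap to liver rests on a dim side. With the Cy5 signal alone Cnn1 differed by 4.05 from lung and by 8.61 from liver on the log2 scale, against 3.03 and 7.53 in the ratios. Smtn had the smallest spread between tissues of these: 1.80 ± 0.37, -0.40 ± 0.10 and -1.16 ± 0.14, or 4.59-fold and 7.76-fold. Lmod1 was dim everywhere. It was well above background on 2 of 5 D0 forestomach arrays and on no D0 array of lung or liver, and in the log2 ratios forestomach exceeded lung by 0.40 and liver by 0.51 (limma adjusted p = 0.0245 and 0.00573). Those differences missed the 1.5-fold limit, which they passed with the Cy5 signal alone (0.80 and 0.88 on the log2 scale).

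The filament and bundling proteins Des and Synpo2 were also highest in forestomach. Des stood at 3.80, 4.38, 3.44, 4.20 and 5.09 there and at 0.79, 1.08, 0.83, 0.80 and 0.56 in lung, with no overlap, and forestomach was 10.4-fold higher. Synpo2 averaged 5.35 ± 1.53 in forestomach and 2.31 ± 0.25 in lung (SD, n = 5 each), a gap of 8.19-fold. Neither gene was well above background on any D0 liver array. On the log2 scale forestomach exceeded liver by 5.17 for Des and 5.46 for Synpo2, and lung exceeded liver by 1.80 and 2.43, gaps that rest on a dim side too.

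In all, 8 of 9 genes differed between forestomach and lung, 8 of 9 between forestomach and liver and 8 of 8 between lung and liver, all in this order. Against liver, only Acta2, Tagln and Smtn were well above background on every D0 array of liver, while Myh11, Des and Synpo2, on 0 of 5 there, entered these counts through the tissue where they were high. Over all probes tested, the shares called were 36.8%, 40.1% and 45.5%, so a large share of all probes also separated these tissues. With each array centred on its median, the median probe moved by -0.98 (forestomach minus lung), -0.22 (forestomach minus liver) and 0.61 (lung minus liver), and 1, 6 and 7 genes were called, where 52.8%, 13.6% and 40.9% of probes were. Smtn then turned to -0.12 between forestomach and lung (adjusted p = 0.899). With the Cy5 signal alone all tested members were called in each pair, where 32%, 39.9% and 40.6% of probes were.

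**Figure D2:**
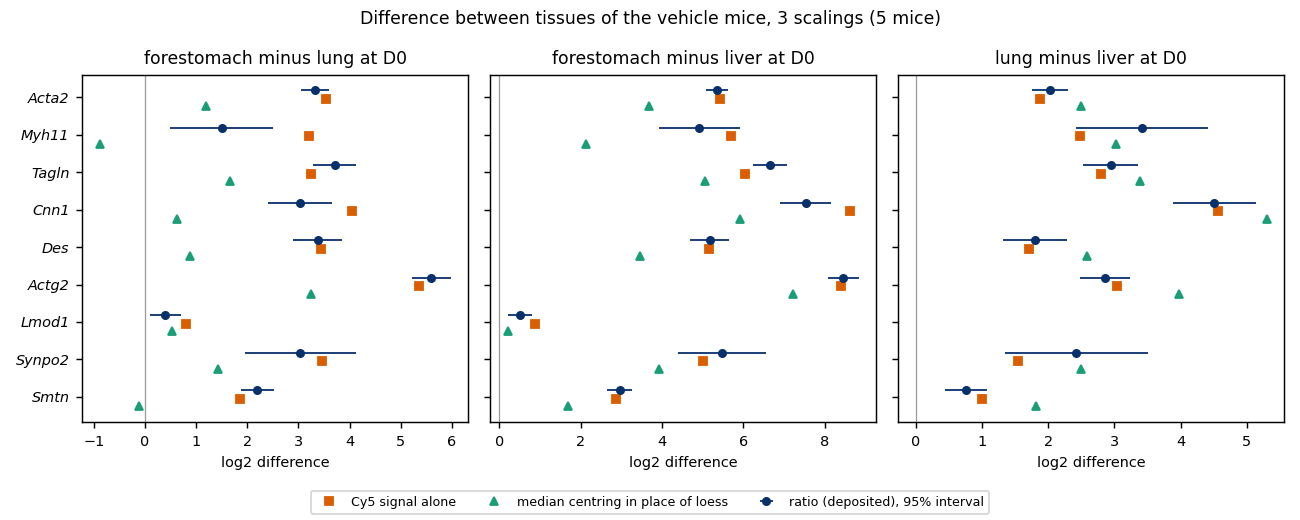
Difference in log2 ratio between tissues at D0 for each contractile gene in the deposited ratios (circles with 95% interval bars), with the Cy5 signal alone (squares) and with median centring (triangles), 5 mice a tissue. In the deposited ratios the differences reach 8.46 for Actg2 (forestomach minus liver), Lmod1 lies nearest 0, and the median-centred Myh11 and Smtn triangles fall below 0 in forestomach minus lung.

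Other genes of the contractile machinery followed the members only in part. A list of 46 was used: regulators, myosin regulation, filaments and anchorage, and receptors and ion channels. Between lung and liver 32 were higher in lung and 3 lower, of 44 tested, where 24.6% of probes were higher and 20.9% lower. Between forestomach and liver 27 were higher in forestomach and 2 lower, of 44 tested (21.4% and 18.7% of probes). Between forestomach and lung the list split evenly, with 14 higher and 14 lower of 45 tested (17.8% and 19.1% of probes), against 8 higher and 0 lower among the 9 members.

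Among genes of myosin regulation, Myl9, the regulatory light chain, was higher in forestomach than in lung by 3.43 and than in liver by 7.80 on the log2 scale. Mylk, the kinase that phosphorylates it, was higher by 0.92 and 2.41. Some genes ran the other way between forestomach and lung: Rock2 and Rock1, kinases that restrain myosin phosphatase, at -0.71 and -0.85, and Prkg1, the cGMP-dependent kinase, at -1.12. Lung exceeded liver for Myl9, Prkg1, Ppp1r12a, Myl6, Mylk, Rock2, Ppp1r14a and Rock1, by 0.73 to 4.37. Forestomach exceeded liver for Ppp1r12a, Myl6 and Prkg1 too, by 0.99 to 2.41.

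Among genes of filaments and anchorage, Tpm2, a tropomyosin, was higher in forestomach than in lung by 4.31, while Tpm1 was lower by 1.30 (log2 difference -1.30). Pdlim3, Pgm5, Flna, Synm, Itga5, Cald1 and Pdlim7 were also higher in forestomach than in lung, by 0.78 to 1.53. Itga8, an integrin subunit, was lower there, at -4.62, as was Tns1 (tensin 1), at -2.11. Against liver, Tpm2, Csrp1, Synm, Pdlim3, Flna, Pgm5, Nexn, Vcl, Pdlim7, Tns1 and Actn1 were higher in forestomach, by 0.72 to 6.60. Lung exceeded liver for Csrp1, Synm, Itga8, Pdlim3, Flna, Tns1, Pgm5, Tpm2, Nexn, Vcl, Tpm1 and Pdlim7, by 0.68 to 6.01, and was lower for Itga5 (-0.90) and Cald1 (-0.999).

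Receptors, channels and regulators gave mixed signs. Ednra, an endothelin receptor, Itpr1 and P2rx1 were lower in forestomach than in lung, at -3.33, -1.70 and -0.91. Htr2b, a serotonin receptor, and Kcnma1 were higher, at 1.51 and 1.29. Rbpms2, an RNA-binding protein, was higher in forestomach than in lung by 1.98, but lower than in liver (-1.77), and it was lower in lung than in liver (-3.76). Tead1, Foxf1, Mrtfb and Rbpms were lower in forestomach than in lung, at -1.62, -1.69, -0.87 and -0.84. Against liver, forestomach was higher for Htr2b, Kcnmb1, Chrm2, Kcnma1, Pln, Tead1, Srf, Myocd and Mrtfa, by 0.79 to 2.64, and lower for Itpr1 (-1.18). Lung exceeded liver for Ednra, Htr2b, P2rx1, Tead1, Foxf1, Gata6, Srf, Mrtfa, Mrtfb, Myocd and Rbpms, by 0.67 to 3.69. For 7 of the forestomach against liver calls, 4 of the lung against liver calls and 1 of the forestomach against lung calls, the lower tissue had no array well above background, so those values rest on a dim side.

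With chrysene, the mean of each of the 9 genes lay above D0 in forestomach at each dose, but none passed the limits. Some of these gaps were small. Smtn at D1 differed by 0.001, with 2 of 5 mice above the D0 mean. At D2, Acta2 and Actg2 differed by 0.10 each, with 2 of 4 mice above it. The median difference from D0 over the members, on the log2 scale, was 0.49 for D1, 0.19 for D2 and 0.59 for D3, against 0.00076, -0.013 and -0.0016 over all probes. The D1 median was raised by mouse 10. It stood above the other D1 mice for Tagln (5.46, against 3.84 to 4.13) and Lmod1 (1.75, against 0.36 to 0.53), among others. None of the 9 was called at any dose or in the trend over dose steps. Over all 27525 probes the share called was 0% at D1, 0% at D2, 0.00727% at D3 and 0.04% in the trend. At the unadjusted limit, a p of 0.05 or less before adjustment, 2 of 9 were higher at D3 (Tagln and Synpo2), as were 5.45% of probes. With the Cy5 signal alone 7 of 9 were, as were 9.61% of probes, with a median of 0.74, and with median centring 0 of 9 were, with a median of 1.08. No gene had all mice of a dose outside the range of D0. The share of all probes with such a gap is not reported here, so nothing particular to the members is read from it.

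Tagln, the actin-binding transgelin, had the lowest p at D3. Its D0 values were 3.55, 3.75, 3.43, 3.35 and 4.43, and its D3 values were 4.35, 4.47, 4.55, 4.45 and 5.14. All D3 mice exceeded D0 mice 1 to 4, and mouse 5 (4.43) lay inside the D3 range. The difference was 0.89 (SE 0.29, 95% interval 0.27 to 1.51, 1.85-fold, limma adjusted p = 0.302). At D1 it stood at 3.84, 3.94, 4.13, 3.99 and 5.46 (difference 0.57) and at D2 at 4.38, 3.40, 4.19 and 4.47 (difference 0.41), both overlapping D0.

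Synpo2, the actin bundler, had the widest gap and the widest spread. At D0 it stood at 5.22, 6.36, 4.05, 3.75 and 7.36 and at D3 at 6.93, 6.92, 6.03, 6.36 and 7.36. The D3 mice covered a narrower range in the upper part of that of D0, and the highest mouse of each dose stood at 7.36. The difference was 1.37 (SE 0.61, 95% interval 0.10 to 2.65, 2.59-fold, limma adjusted p = 0.481). The D1 mice ranged from 4.50 to 7.26 and the D2 mice from 5.63 to 6.09, with differences of 0.40 and 0.45.

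The differences of the actins were smaller. Acta2 went from 2.51, 2.31, 2.36, 2.77 and 3.07 at D0 to 2.64, 3.12, 2.81, 3.29 and 3.63 at D3, which overlap. Its difference was 0.50 (95% interval -0.05 to 1.04, limma adjusted p = 0.59). Actg2 stood at 5.65, 5.72, 5.49, 6.04 and 6.65 at D3 within and above its D0 range of 5.26 to 6.00, and its difference was 0.35 (95% interval -0.27 to 0.97, adjusted p = 0.792). In the D1 mouse 10 both actins reached their highest forestomach level, 3.92 for Acta2 and 7.27 for Actg2.

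Myh11 reached 5.54, 5.22, 5.36, 6.47 and 6.48 at D3. The D3 mice all lay above D0 mice 1, 3 and 4 and around mice 2 and 5, and the difference was 0.79 (95% interval -0.38 to 1.96, limma adjusted p = 0.738). With 1 mouse left out at a time, the Myh11 difference ranged from 0.22 to 1.10. Cnn1 stood at 6.23, 6.60, 5.92, 5.04 and 6.95 at D0 and 6.47, 6.35, 6.33, 7.04 and 7.48 at D3, a difference of 0.59. Des stood at 4.50, 4.86, 4.07, 4.98 and 5.90 at D3, with a difference of 0.68. Its D1 difference was 0.84 (95% interval 0.08 to 1.61, limma adjusted p = 0.99994). It was the only member past the unadjusted limit at D1, where 2.26% of probes were higher. For Smtn the D3 values were 1.91, 2.45, 2.05, 2.75 and 2.43 against 2.12, 1.77, 1.20, 1.79 and 2.10 at D0, a difference of 0.52. Lmod1 was well above background on 4 of 5 D3 arrays and 2 of 5 D0 arrays, with a difference of 0.48. The adjusted p values of these 4 genes at D3 were 0.607 to 0.681.

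**Figure D3:**
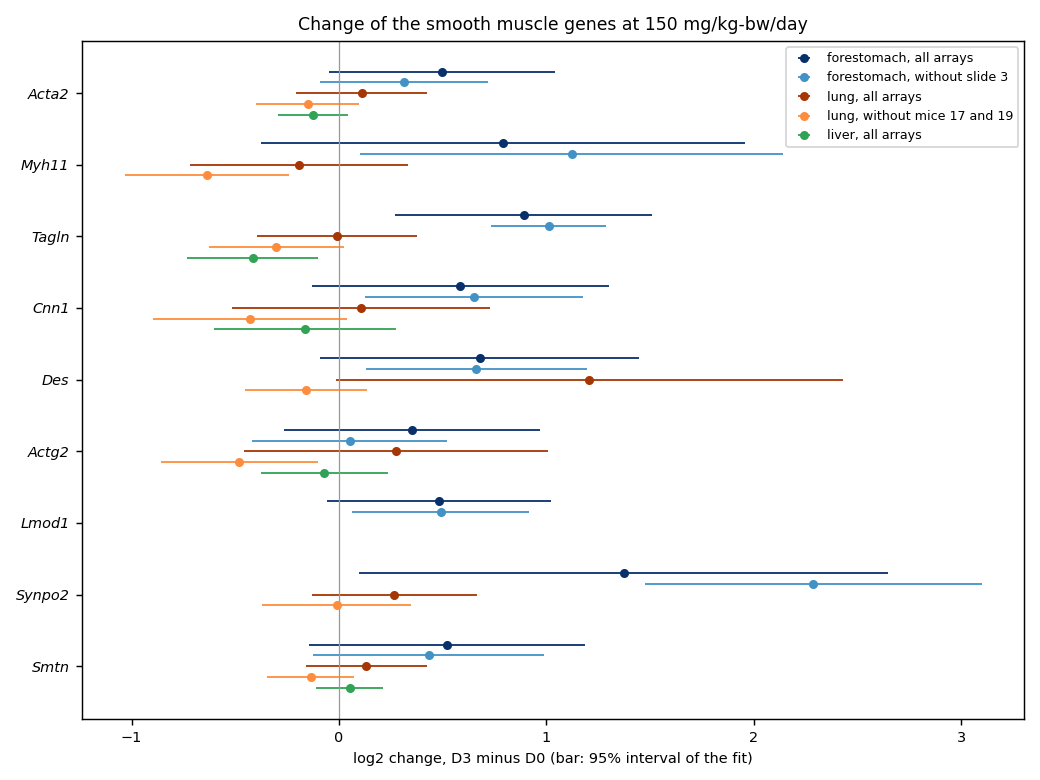
Difference in log2 ratio between D3 and D0 in each tissue for the contractile genes tested there (points) with 95% intervals (bars), with forestomach also drawn without slide 3 and lung without mice 17 and 19. With all arrays, in forestomach all 9 points lie above 0 and the intervals of Tagln and Synpo2 exclude it, in lung the Des point stands at 1.21 with an interval that includes 0, and in liver the Tagln interval lies below 0. With all arrays none passed the adjusted limit, and without slide 3 Tagln (1.01) and Synpo2 (2.29) did.

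Which forestomach differences were called depended on slide 3, but their direction did not. Without that slide all 9 stayed above 0, with a median of 0.65 against 0.59 with all arrays. The median log2 ratio was highest on slide 3 for all 9 genes, and the median Cy5 signal of Myh11 was 2613 on slide 1, 1198 on slide 2 and 12246 on slide 3. Within slide 1, where D0 had 1 mouse and D3 had 2, D3 exceeded D0 for 9 of 9 genes (median 0.37). Within slide 2 (2 and 1 mice) it did for 8 of 9 (median 0.56, Actg2 at -0.17), and within slide 3 (2 and 2 mice) for 9 of 9 (median 0.65). For Synpo2 the within-slide differences were 1.71, 2.13 and 0.00. The markers of pericytes, endothelium, enteric neurons, interstitial cells of Cajal and keratinocytes were also highest on slide 3 by their median. So was every other marker list, glandular stomach and hepatocyte markers among them, except fibroblasts (0.22, against 0.43 on slide 1). With slide as a block, 6 of 9 genes were higher at the unadjusted limit, as were 8.3% of probes, and none was called.

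Without slide 3, which left 3 mice at D0 and 3 at D3, Tagln and Synpo2 were called. For Tagln this set mice 1, 3 and 4 (3.55, 3.43 and 3.35) against mice 16, 17 and 18 (4.35, 4.47 and 4.55), a difference of 1.01 (SE 0.13, limma adjusted p = 0.011). For Synpo2 it set 5.22, 4.05 and 3.75 against 6.93, 6.92 and 6.03, a difference of 2.29 (SE 0.37, adjusted p = 0.0216). Neither pair of groups overlapped. In that fit 2.42% of 17757 probes were called, so the calls were not limited to the contractile genes. The trend without slide 3 also called these 2 genes (adjusted p = 0.00571 for each, with 3.3% of probes called). Leaving out slide 3 was chosen after the data had been seen.

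**Figure D4:**
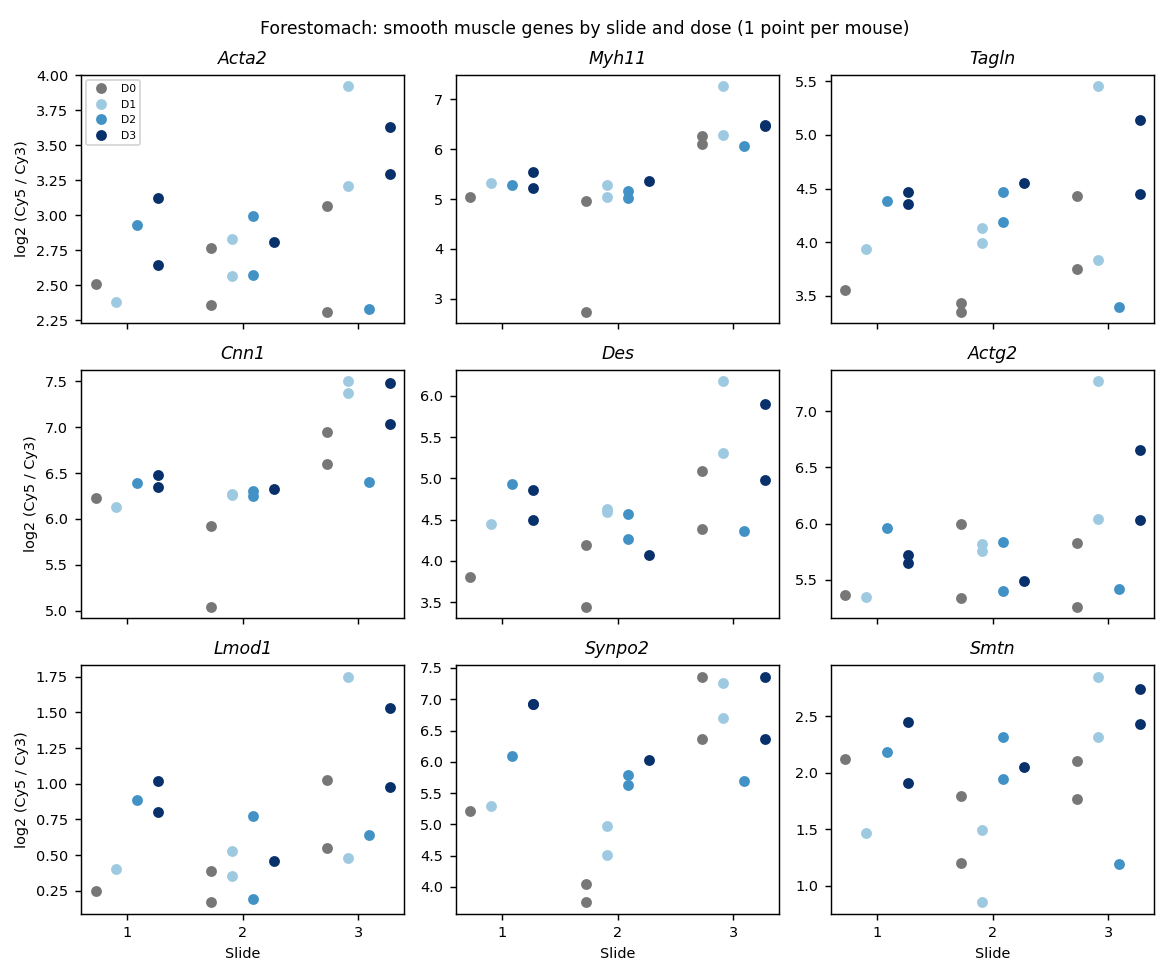
Log2 ratio of each contractile gene in forestomach by slide, 1 point per mouse, with the 4 doses in separate colours. On slides 1 and 2 the Tagln and Synpo2 points of D3 lie above those of D0, and on slide 3 the Synpo2 points of D0 and D3 overlap.

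None of the other smooth muscle genes was called in forestomach at D3 with all arrays. Of 44 tested, 14 were higher and 0 lower at the unadjusted limit (5.45% and 3.79% of probes), and the median difference was 0.56 (0.59 over the members). The largest were Pgm5, a protein of adherens junctions, at 1.35 (limma adjusted p = 0.311) and Rbpms2 at 1.21 (0.221). Pgm5 stood at 4.67, 4.32, 3.23, 2.34 and 5.28 at D0 and 5.78, 5.75, 4.45, 4.85 and 5.76 at D3, which overlap. Rbpms2 stood at 1.79, 2.15, 1.88, 0.67 and 2.75 and at 2.64, 3.30, 2.73, 2.79 and 3.86, which overlap through mouse 5. The lowest were Gata6 at -0.88 and Rock1 at -0.15. Without slide 3, 8 of 39 tested were called, where 2.42% of probes were, among them Rbpms2, Mylk, Myl6, Csrp1, Nexn, Itga8 and Kcnmb1.

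Markers of other cell types in the same slices were not tested between the doses, and their levels are given here. The mean of 6 pericyte markers had a lowest, median and highest value of 0.46, 0.83 and 2.14 at D0 and 1.18, 1.85 and 2.62 at D3. The pair of markers of interstitial cells of Cajal, the pacemaker cells of the gut wall, stood at 0.83, 1.95 and 2.99 and at 1.67, 2.82 and 3.70. Keratinocyte markers, from the squamous lining, stood at 2.86, 3.44 and 4.92 and at 3.79, 3.91 and 4.86, and endothelial markers at 0.07, 0.08 and 1.42 and at 0.40, 0.96 and 1.33. All of these groups overlapped. The 9 glandular stomach markers had medians of 5.84 at D0 and 1.62 at D3, over ranges of 0.65 to 6.96 and 0.51 to 7.03. The part of these cell types in the member values was not tested.

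In lung none of the 8 genes tested changed at D1, D2, D3 or over the trend, and none passed the unadjusted limit at D3. At D3, 40 of 31495 probes (0.127%) were called, 0% at D1 and D2, and 0.168% in the trend. The members' median difference at D3 was 0.12. At D1 the lowest p belonged to Synpo2, with a difference of -0.37 (limma adjusted p = 0.834).

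Des showed 2 mice apart. At D0 it stood at 0.79, 1.08, 0.83, 0.80 and 0.56, and at D3 at 0.74, 4.07, 0.40, 4.07 and 0.81. Mice 17 and 19 (4.07 each) lay above every other lung, and the other 3 D3 mice lay in or just below the D0 range. The difference was 1.21 (SE 0.58, 95% interval -0.01 to 2.43, limma adjusted p = 0.315), and it was -0.16 without those 2 mice. The same mice were highest for Actg2, with D3 values of -0.34, 1.45, -0.66, 1.28 and -0.57 against -0.20 to 0.18 at D0, and the other 3 D3 mice lay below that range. They were also highest at D3 for Cnn1 (2.95, 4.34, 2.42, 3.72 and 2.72), for Myh11 (2.87, 4.30, 2.89, 3.71 and 2.92) and for Acta2 (-0.78, -0.06, -1.04, -0.37 and -0.79). They also had the skeletal muscle and keratinocyte markers given above, with 12 of 12 skeletal markers well above background against 6 to 8 in the other mice. Their fibroblast markers averaged 0.46 to 0.75, against -0.80 to 0.03 in the other 16, their pericyte markers 1.55 to 1.66 against 0.94 to 1.33, and their adipocyte markers 3.13 to 3.32 against 0.70 to 3.01. Enteric neuron markers were also higher (0.43 to 0.51 against 0.19 to 0.41), and endothelial markers were lower (4.77 to 4.85 against 5.01 to 5.63). Desmin is a filament of skeletal as well as smooth muscle. The part of other tissue in these values was not tested.

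Without mice 17 and 19, all 8 genes lay below D0 at D3, from -0.64 to -0.01. Myh11 then had a difference of -0.64 (95% interval -1.03 to -0.24, limma adjusted p = 0.332) and Actg2 of -0.48 (adjusted p = 0.406). These 2 passed the unadjusted limit, as did 4.97% of probes in the lower direction. Cnn1 stood at -0.43 and Tagln at -0.30. None of the 8 genes, and 0% of 31060 probes, was called. In the fit with all mice the D3 differences were 0.11 for Acta2 (95% interval -0.21 to 0.42), -0.19 for Myh11 (-0.72 to 0.34), -0.01 for Tagln (-0.40 to 0.38) and 0.13 for Smtn (-0.16 to 0.42). With slide as a block the Des difference was 1.29 (adjusted p = 0.266), and within slides 1, 2 and 3 the median difference over the 9 genes was 0.67, 0.21 and -0.11, with mouse 17 on slide 1 and mouse 19 on slide 2. Lmod1 had 0 of the 18 lung arrays well above background.

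**Figure D5:**
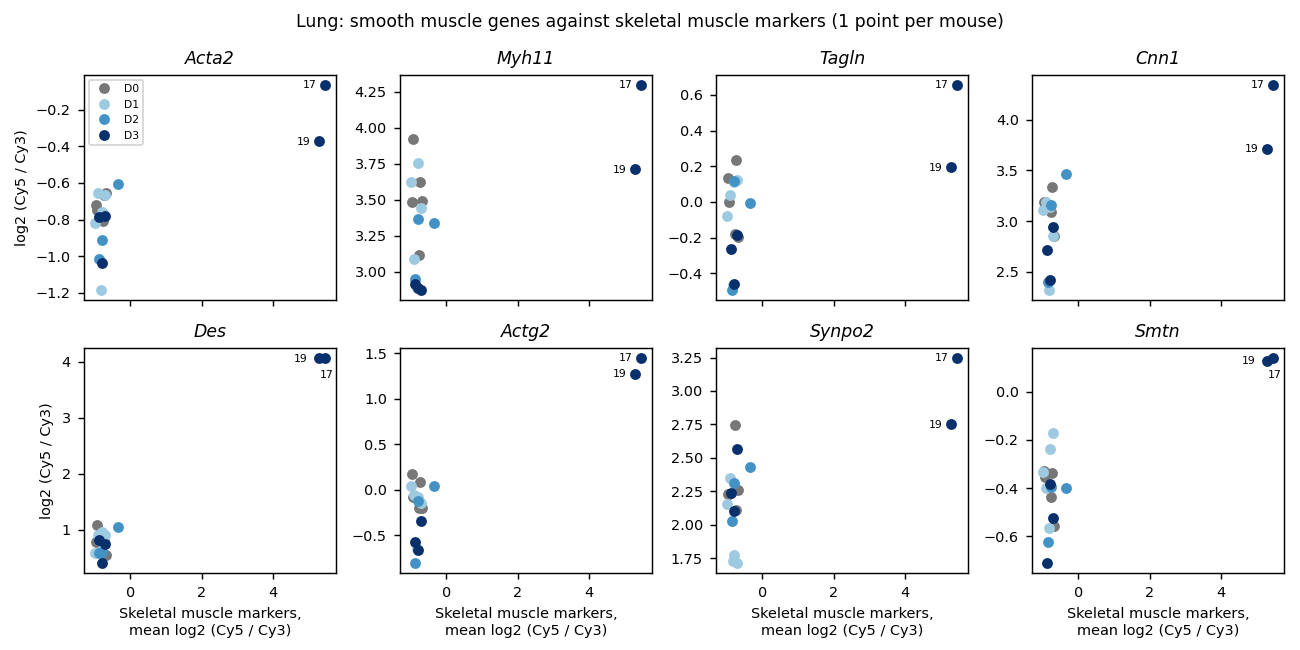
Log2 ratio of the 8 contractile genes tested in lung against the mean log2 ratio of 12 skeletal muscle markers, 1 point per mouse. Mice 17 and 19 of D3 lie alone at the right, at 5.46 and 5.29 on the horizontal axis, and the other 16 mice lie between -0.99 and -0.34.

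Among the other smooth muscle genes in lung, 44 were tested at D3 and 0 called, with 2 higher and 7 lower at the unadjusted limit. Over all probes the shares there were 6.05% and 10.1%. Tpm1 at 1.49 and Tpm2 at 1.22, both tropomyosins, were highest, and Rock1 at -0.35 and Rock2 at -0.32 lowest. Without mice 17 and 19, 1 was higher and 2 lower, as were 4.98% and 4.97% of probes, and Tpm1 stood at -0.37, Tpm2 at -0.059, Rock1 at -0.13 and Rock2 at -0.22.

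In liver none of the 5 genes tested changed, and 0% of 24766 probes was called at any dose. Tagln had the lowest p. It stood at -2.55, -3.30, -3.06, -3.12 and -2.68 at D0 and at -3.58, -3.45, -3.45, -3.40 and -2.92 at D3. Mice 16 to 19 lay below every D0 mouse and mouse 20 lay inside their range. The difference was -0.42 (SE 0.15, 95% interval -0.73 to -0.10, 0.749-fold, limma adjusted p = 0.969). It passed the unadjusted limit, as did 2.32% of probes in the lower direction. At D1 and D2 it was -0.28 and -0.32. Within slides 1, 2 and 3 the D3 difference was -0.22, -0.33 and -0.30, and with slide as a block it was -0.31 (SE 0.07, adjusted p = 0.383).

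Acta2 ranged from -2.97 to -2.62 at D0 and differed by -0.12 at D3 (95% interval -0.29 to 0.04). Smtn differed by 0.05 (-0.11 to 0.21), Cnn1 by -0.16 (-0.60 to 0.27) and Actg2 by -0.07 (-0.38 to 0.24). Acta2, Tagln and Smtn were well above background on every liver array, Cnn1 on 5 of 19 and Actg2 on 9 of 19, Des on 1, and Myh11, Lmod1 and Synpo2 on 0. Of 34 other smooth muscle genes tested, 0 were called, and 0 were higher and 5 lower at the unadjusted limit (2.45% and 2.32% of probes), with Synm at 0.14 and Nexn at 0.12 highest and Tpm2 at -0.25 and Ppp1r12a at -0.21 lowest.

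The D3 effects were also compared between tissues, in a fit of all arrays. No member passed the limits in any pair, while 0.703% of probes did for forestomach against lung, 0.0773% for forestomach against liver and 0% for lung against liver. Tagln came nearest: its effect in forestomach exceeded that in liver by 1.31 (SE 0.32, 95% interval 0.66 to 1.96, limma adjusted p = 0.0786) and that in lung by 0.90 (adjusted p = 0.173). For Synpo2 the forestomach effect differed by 1.11 from that of lung (adjusted p = 0.389). Its liver signal was well above background on 0 of 19 arrays, so no liver effect of Synpo2 was measured and the calls of Synpo2 against liver given next rest on forestomach alone. For Des the forestomach effect was lower than that of lung by 0.53 (difference -0.53, 95% interval -1.72 to 0.66). Without the lungs of mice 17 and 19 that difference turned to 0.84 (SE 0.37). In that fit 8 of 9 genes, all but Lmod1, had a higher effect in forestomach than in lung at the unadjusted limit, as did 5.07% of probes, against 1 of 9 (Tagln) and 7.69% with all arrays, and none was called. Against liver, Tagln and Synpo2 were called without mouse 5, where 0.558% of probes were, and Tagln without mouse 10, where 0.208% were. Without the forestomach arrays of slide 3, Tagln and Synpo2 were called against lung and against liver, with 4.57% and 4.28% of probes called.

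Among the other smooth muscle genes 3 were called for forestomach against lung, all with a higher effect in forestomach. Myl6, the essential light chain of myosin, differed by 0.84 (limma adjusted p = 0.0151). In forestomach it stood at 0.83, 1.34, 0.85, 1.01 and 1.53 at D0 and 1.69, 1.86, 1.86, 1.63 and 1.97 at D3, with no overlap. In lung it stood at 1.33, 1.22, 1.20, 1.17 and 1.46 and at 1.28, 1.03, 1.29, 0.65 and 1.37, where the groups overlap. Csrp1, a protein of the actin cytoskeleton, differed by 1.15 (adjusted p = 0.0462), with 3.08, 3.25, 2.62, 3.06 and 4.03 at D0 and 3.94, 4.52, 3.95, 4.16 and 4.80 at D3 in forestomach. Tead1, a transcription factor, differed by 0.72 (adjusted p = 0.0446). Without the lungs of mice 17 and 19 none of the 3 was called, with adjusted p values of 0.138 to 0.26, while the differences were 0.65 for Myl6, 0.99 for Csrp1 and 0.59 for Tead1. With the mouse as a block all 3 were called. Of the 45 genes tested, 0 were called with median centring, where 0% of probes were (median difference 0.54, against 0.57 with loess). Without slide 3 of forestomach 15 were called, these 3 among them, where 4.57% of probes were.

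The members varied together from mouse to mouse in forestomach and lung. After the dose means were removed, each gene's correlation with the mean of the other members across the 19 forestomach arrays was 0.59 to 0.90 (median 0.78). With slide means removed as well it was 0.03 to 0.85 (median 0.70). In lung it was 0.68 to 0.98 over 18 arrays and 0.27 to 0.96 without mice 17 and 19, and in liver -0.49 to 0.62 over 19 arrays (median 0.29). With slide means removed the liver values were 0.12 to 0.58 (median 0.44), and Tagln went from -0.49 to 0.44. These are descriptions, since the arrays of a tissue share slides, signal strength and the mix of cells in a slice. The spread within a dose was wide for these genes: the residual SD of the members was 0.43 to 1.04 in forestomach, against a median of 0.28 over all probes, and 0.23 to 1.02 in lung, against 0.16. Synpo2 and Myh11 had the widest spread in forestomach (1.04 and 0.95) and Des in lung (1.02). In liver 3 of 5 lay above the median of 0.16.

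The genes whose deviations were most like the members' mean were named from genes outside the lists and well above background on every array of the tissue. In forestomach, over 19 arrays and 6029 genes, these were Rspo3, a secreted activator of Wnt signalling (r = 0.94), Tnfrsf11b, which encodes osteoprotegerin (0.94), Arl4d (0.94), Galnt16 (0.93), Gpm6b (0.93) and Reep1 (0.93). With slide means removed their r was 0.80 to 0.88. In lung, over 18 arrays and 12874 genes, these were Chchd3 (0.95), Kremen1 (0.95), Itgb4 (0.95) and Rbm24 (0.94), and without mice 17 and 19 their r was 0.67 to 0.78. Over those 16 lungs the most alike were Ctps2 (0.95), Spata18 (0.87), Kars (0.87) and Rdx (0.87). In liver, over 10148 genes, these were Mgp, matrix Gla protein (0.93), Cep95 (0.81), Gramd1a (0.77) and Atpif1 (0.76). Likeness here is the Pearson r over arrays, and the lung values without mice 17 and 19 show how far it rests on those 2 animals.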

How the data were processed

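The labels and the study's methods describe two-colour Agilent 8x60K arrays, with tissue RNA in Cy5 and Universal Mouse Reference RNA in Cy3 on all arrays and no dye swap. The deposited scanner files, from Feature Extraction 10.7.3.1 per the file headers (build mm9), hold median signal intensity per spot and flags for well above background. The authors' table holds log2 ratios after LOWESS on median signals with the background left in. They were set against loess ratios computed here from the scanner files to check scale and sign (r of 0.977 to 0.998 per array, slope 0.953 to 0.996). Its column medians were -0.0456 to -0.0201. The number of arrays, not read depth, limits precision.

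The authors' log2 ratios were tested with limma 3.58.1 (R 4.3.3) in place of their MAANOVA, by dose within a tissue, over dose steps 0 to 3 (trend value from D0 to D3), between tissues at D0, and for D3 effects between tissues, over all probes well above background on at least 3 arrays of a tissue. P-values were adjusted by Benjamini-Hochberg over all probes tested. Control spots (3671) were left out, and the spots of a probe were averaged. Symbols came from the RefSeq accessions (26413 of 55681 probes named, or 47.4%). The member genes were named throughout, and the other smooth muscle genes when past both limits, or else the 2 highest and 2 lowest at D3. Some genes of that list are counted but not reported by name here. The members and lists were chosen with earlier results of these data known. Same-numbered mice are the same animal in each tissue, per the labels. Their deviations correlated by -0.087 to 0.133 (forestomach and lung), -0.167 to 0.246 (forestomach and liver) and 0.0416 to 0.27 (lung and liver). Scripts were tested on simulated data. Alternatives were other background correction, centring, filters and probe choice, slide and mouse blocks, array column, Cy5 alone, and leaving out mice or slides.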

Additional observations from a re-analysis of the deposited data

Results flagged for a closer look

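In 8 of 80 groups of 4 or 5 mice tested for a member gene, 1 mouse lay far from the rest of its group. Chance gives about 1 in 20 such groups, or 4 of 80, were the groups independent. The members share mice and varied together, so 8 cannot be read as an excess over 4. In forestomach, D1 mouse 10 had Tagln at 5.46, where the others lay between 3.84 and 4.13, and Lmod1 at 1.75, where the others lay between 0.36 and 0.53. D3 mouse 20 had forestomach Tagln at 5.14, above 4.35 to 4.55. Mice 10 and 20 of forestomach were both on slide 3. In lung, D1 mouse 10 had Actg2 at -0.65, below -0.15 to 0.04, and D0 mouse 3 had Synpo2 at 2.74, above 2.11 to 2.26. In liver, D3 mouse 20 had Tagln at -2.92, above -3.58 to -3.40, D1 mouse 7 had Cnn1 at -1.03, above -1.46 to -1.34, and D1 mouse 10 had Actg2 at -3.25, below -2.91 to -2.78.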

How the results depend on the processing

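Counts of changed members stayed at 0 for D3 and the trend in lung and liver under every alternative run, and for forestomach under all but 1. Without slide 3 of forestomach, 2 members were called at D3, 2 in the trend, and 2 in the D3 effect against lung and 2 against liver, where Synpo2 was not well above background. With only probes well above background on every array, which left 3 members to test against liver, 3 were called for forestomach against liver and 3 for lung against liver at D0, where 54.9% and 55.5% of probes were, and 1 (Tagln) for the D3 effect of forestomach against liver, where 1.37% were. Median centring left 1 call for forestomach against lung at D0. Leaving out each mouse gave 0 to 2 calls for the D3 effect of forestomach against liver. Leaving out slide 3 or mice 17 and 19 and using Cy5 alone were chosen after seeing the data. Median centring moved the median probe at D3 by 0.187 in forestomach, 0.143 in lung and -0.0426 in liver. The mouse as a replicate block, fitted between tissues, gave 8, 8 and 8 calls at D0, where 36.9%, 40.2% and 45.6% of probes were called. For D3 effects it gave 0, 0 and 0, where 0.768%, 0.0806% and 0% were, and it changed no member's call.

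Single values reversed as follows, and the cause was not tested. Without mice 17 and 19 in lung at D3, Acta2 was -0.15, Actg2 -0.48, Cnn1 -0.43, Des -0.16, Smtn -0.14 and Synpo2 -0.011. With the array column as a covariate, liver Actg2 was 0.054, Cnn1 0.020 and Smtn -0.016, and lung Des was -0.92, Smtn -0.065 and Tagln 0.36. In forestomach at D3 that covariate reversed no gene, but Synpo2 went from 1.37 to 0.72, Myh11 from 0.79 to 0.089, Acta2 from 0.50 to 0.88 and Actg2 from 0.35 to 0.80. With median centring, Myh11 was -0.89 and Smtn -0.12 for forestomach minus lung, and lung Tagln 0.23. Lung Tagln was 0.016 with normexp, 0.014 with loess from the scanner files and 0.013 with slide as a block. Leaving out single mice gave lung Acta2 -0.026 to 0.22, Actg2 -0.030 to 0.50, Cnn1 -0.17 to 0.31 and Tagln -0.18 to 0.10, and liver Actg2 -0.20 to 0.002, Cnn1 -0.24 to 0.041 and Smtn -0.0078 to 0.089. Dim signal limits the values of Lmod1 in all tissues and of Myh11, Des, Synpo2, Cnn1 and Actg2 in liver.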
